A study of Homo sapiens with 18 samples.

Results

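The genes described here are the thyroid hormone receptors THRA and THRB, their heterodimer partner RXRA, the corepressor NCOR1, the hormone-responsive genes KLF9, HR, DIO1 and THRSP, and SERPINA7, which encodes thyroxine-binding globulin. They were chosen by name, with earlier results of these data known, as 9 of the 36684 gene symbols in the count table. Of the 9, 8 passed the filter on low counts and were tested among 14557 genes, and THRSP did not pass. RNA-seq had been done on 18 libraries of Hep3B, a line of human liver cancer cells, in 6 groups of 3 that the study calls biological replicates. Con was untreated, and Model was the steatosis model, in which cells were loaded with free fatty acids (FFA). FUCO-0.5, FUCO-1 and FUCO-2 were model cells given fucoxanthin, a marine carotenoid, at 0.5, 1 or 2 μM, and RES was the positive control, model cells given resmetirom. The titles give the dose numbers without a unit, the unit being that of the study's other Hep3B work, and they do not spell out the FFA in the FUCO and RES groups. The RES dose and the treatment times were not given for these libraries. All 6 groups come from a single tumour line grown without other liver cell types. The p-values of the log2 fold changes rest on the spread between libraries of this line, within groups of 3 and estimated over all 6 groups.

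Thyroid hormone acts through nuclear receptors that sit on DNA, mostly as heterodimers with a retinoid X receptor. Without hormone they hold corepressor complexes such as those built on NCOR1, and with hormone they exchange these for coactivators, so that a set of target genes is raised and a smaller set is lowered. In liver the predominant receptor is THRB, and resmetirom is an agonist with preference for it. The deiodinase DIO1 and the lipogenic protein encoded by THRSP are classical hepatic targets, KLF9 is a hormone-induced transcription factor found in many tissues, HR encodes a corepressor of the receptors, and thyroid hormone is known to lower thyroxine-binding globulin.

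The receptor dimer typically binds a direct repeat of the hexamer AGGTCA with a spacer of 4 bases, called DR4. To show the members' own sequences of this kind, the 10 kb before each annotated start was searched on both strands of GRCh38.p14 for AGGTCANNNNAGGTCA, and for the looser AGGNCANNNNAGGNCA, which includes the strict form. Starts and promoters were those of RefSeq, which matched 8 of the 9 genes, all but HR. The strict repeat was found for DIO1, at chr1:53893513-53893528 on the plus strand, 659 bases before the start. The looser repeat was found for KLF9, in 2 overlapping copies of which the nearer lies at chr9:70421062-70421077 on the minus strand, 6405 bases before the start, and for THRB at chr3:24497885-24497900 on the minus strand, 2177 bases before the more distal of its 2 starts. The 3 matches are printed 5′ to 3′ with 7 bases on each side, and the capitals mark the hexamers.
DIO1: ggcgggtAGGTCAtctgAGGTCAggagttc
KLF9: gcaaggcAGGACAggacAGGGCAaacctgg
THRB: aacactgAGGGCAtagcAGGGCAgggacta
Windows of this length hold the strict repeat at 1.01% and the looser repeat at 6.63% of 35116 annotated starts. No match was found for THRA, RXRA, NCOR1, SERPINA7 or THRSP. From 250 bases before to 50 bases after the start, the hexamer alone was present in 13.8% of promoters and, among these genes, in DIO1. Such matches describe the letters of the windows and not binding.

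RES was read against Model first. KLF9 rose 4.28-fold, SERPINA7 fell 19.2-fold, RXRA fell 2.18-fold and THRA fell 1.40-fold, whereas THRB, NCOR1, HR and DIO1 did not pass the test. The test was edgeR's quasi-likelihood test on counts, fitted to all 18 libraries, and a gene was called at a Benjamini-Hochberg adjusted p under 0.05 over all genes tested. By that rule 4 of the 8 tested members were called (50%) where 49.4% of all tested genes were, so the number of called members was near that of the transcriptome. With a log2 fold change over 1 in size required as well, 3 of 8 (37.5%) passed, against 9.91% of all tested genes. The median log2 fold change of the 8 was −0.43, against 0.0023 over all tested genes. The CPM printed for a library divides its counts by its total after the TMM adjustment.

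**Figure D1:**
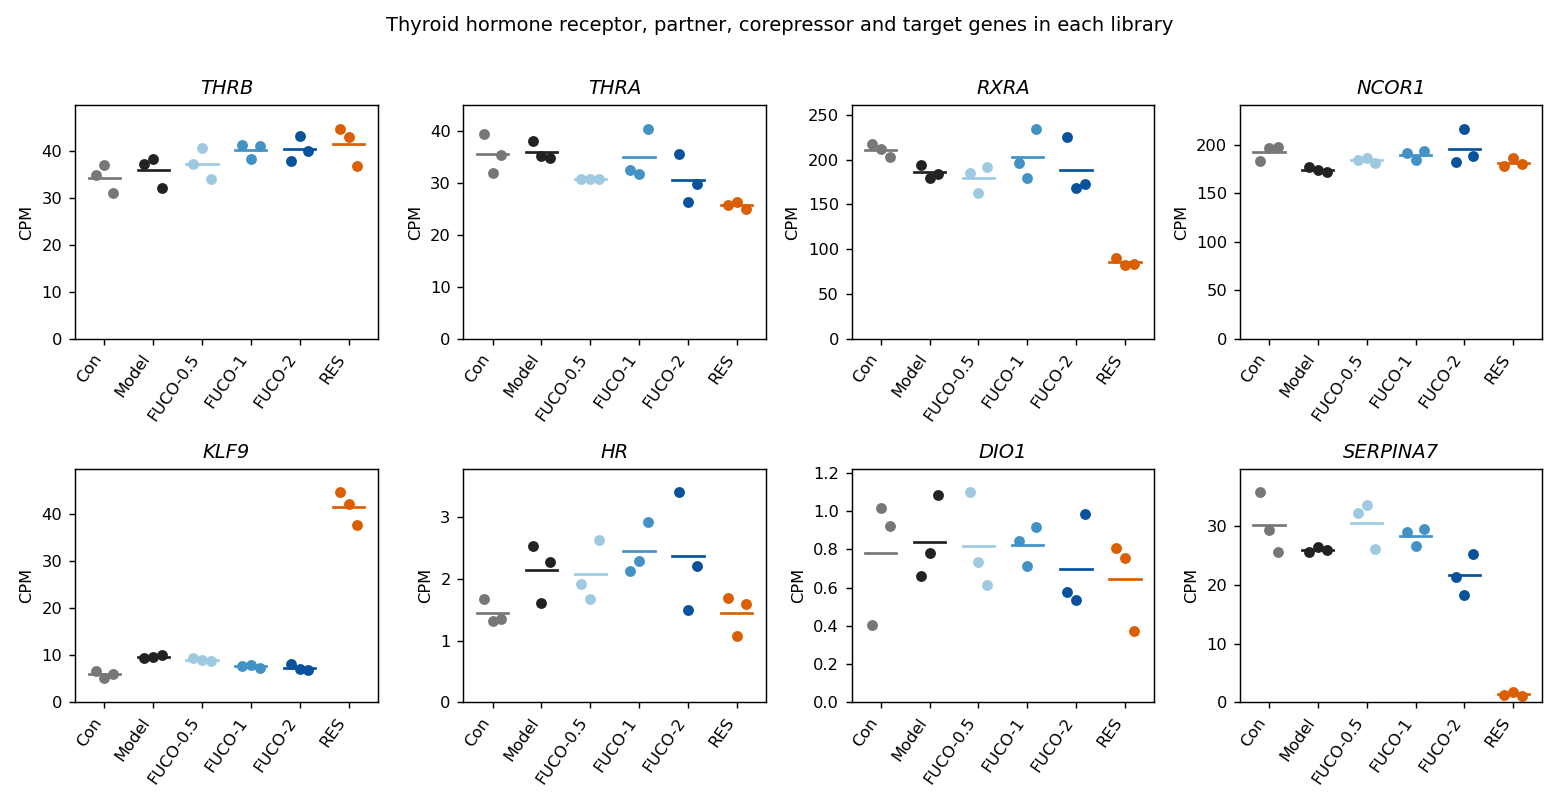
CPM (vertical axes from 0) of the 8 tested genes in each of the 18 libraries, by group on the horizontal axes. Points are libraries and lines are means of 3. KLF9 stands at 37.6 to 44.5 CPM in RES and at 10.1 or less elsewhere, and SERPINA7 at 1.83 or less in RES and at 18.3 or more elsewhere.

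KLF9 encodes a Krüppel-like zinc finger factor that thyroid hormone induces, and it was counted at 44.5, 42.0 and 37.6 CPM in the 3 RES libraries and at 9.32, 9.57 and 10.1 CPM in the 3 Model libraries. Every RES library was above every library of the other 5 groups. The log2 fold change was 2.10 (SE 0.10), with an adjusted p of 2.12e-14 in edgeR. Against Con, where KLF9 stood at 5.95 ± 0.786 CPM (SD, n = 3), the difference was 6.95-fold. KLF9 lies at chr9:70384604-70414657. It overlaps KLF9-DT and LOC124900273, and neither symbol is in the count table.

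SERPINA7 encodes the main carrier of thyroxine in human blood, which hepatocytes secrete. Its counts were 30, 34 and 23 in RES, or 1.21, 1.83 and 1.07 CPM, and 467, 475 and 480 in Model, or 25.6, 26.4 and 26.0 CPM. The RES libraries were the lowest of the series by a wide gap, the next being a FUCO-2 library at 18.3 CPM. The log2 fold change was −4.26 (SE 0.18, adjusted p = 1.95e-15, edgeR). SERPINA7 lies at chrX:106032435-106038727 and overlaps no annotated gene. Its mean in RES was 5.27% of that in Model.

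Markers of the hepatocyte were lower along with SERPINA7. Of 10 markers, 8 fell and 1 rose in RES against Model, where 25.1% of all tested genes fell and 24.4% rose. The median log2 fold change of the 10 was −1.31. AFP fell by 4.72, APOA1 by 2.56, TTR by 2.46, ALB by 2.17 and TF by 1.97 on the log2 scale, and FGB rose by 0.42. The summed level of the 10 markers was 15259 to 15669 CPM in RES and 52067 to 52526 CPM in Model. The part of this shift in the SERPINA7 result was not tested. All libraries are of the Hep3B line, and in its bulk RNA fewer cells with the markers and less marker RNA per cell cannot be told apart. Of the markers of leukocytes, endothelium, stellate cells and cholangiocytes, 8 were tested. With RES 2 of the 8 rose and 4 fell, against the same shares of all tested genes. CD14 went from 3.58 CPM in Model to 11.7 CPM in RES, and COL1A1 from 1.37 to 2.13. LYZ went from 15.9 to 6.08 CPM, PECAM1 from 1.26 to 0.660, PDGFRB from 12.3 to 1.16 and KRT19 from 242 to 102. EPCAM and SOX9 did not pass, at 558 and 104 CPM in Model and 554 and 110 CPM in RES. The summed level was 16.9 to 18.5 CPM in RES and 16.0 to 21.8 CPM in Model for the 5 leukocyte markers, 0.606 to 0.727 and 1.15 to 1.45 for the 4 of endothelium, 2.94 to 3.47 and 12.1 to 15.5 for the 4 of stellate cells, and 742 to 782 and 864 to 930 for the 4 of cholangiocytes. Of these lists, PTPRC, CD3E, CDH5, VWF, KDR, COL3A1 and ACTA2 had at most 2 counts in any library, and CD68 and KRT7 at most 7. The part of these markers in the results of RES was not tested. The 3 RES libraries also stood apart from the other 15 on the principal component that held 47.0% of the variance.

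RXRA, the retinoid X receptor α that pairs with both thyroid hormone receptors, was counted at 89.8, 82.6 and 83.3 CPM in RES and at 194, 180 and 184 CPM in Model. The groups did not overlap, and the lowest library outside RES stood at 163 CPM. The log2 fold change was −1.13 (SE 0.10, adjusted p = 1.60e-09, edgeR). The paralog RXRB had a log2 fold change of 0.14 with an SE of 0.096 (adjusted p = 0.235, edgeR), and RXRG had 0 counts in all libraries. A microRNA gene inside RXRA, MIR4669, also had 0 counts.

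Of the receptor genes, THRA passed the test and THRB did not. THRA, which encodes the receptor that predominates in heart, brain and skeleton, stood at 25.8, 26.3 and 25.1 CPM in RES and at 38.1, 35.1 and 34.8 CPM in Model. RES was below Model in every library, at −0.49 on the log2 scale with an SE of 0.10 (adjusted p = 3.88e-04, edgeR). THRB, which encodes the target of resmetirom, stood at 44.8, 43.0 and 36.9 CPM in RES and at 37.2, 38.4 and 32.2 CPM in Model. These groups overlapped, and the log2 fold change was 0.21 (SE 0.093, adjusted p = 0.0639, edgeR), with a 95% interval of 0.018 to 0.40 before adjustment. THRB was called in 4 of 13 alternative fits, with adjusted p-values from 0.0204 to 0.289. The 3′ end of THRA overlaps NR1D1 on the opposite strand, and NR1D1 rose by 0.51 on the log2 scale in the same comparison (adjusted p = 0.0025, edgeR). Whether the counting used the strand was not stated, so reads of the overlap cannot be assigned to either gene. THRB overlaps THRB-AS1 and THRB-AS2, whose symbols are not in the count table, and RPL31P20, which was not analysed.

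Levels of different genes were compared only per length, as CPM per kilobase of the MANE Select transcript. Group means of RXRA ran from 15.4 to 38.0 on this scale and those of NCOR1 from 16.3 to 18.3. The receptors were lower, THRA at 4.94 to 6.92 and THRB at 4.53 to 5.48. The ratio of THRB to THRA on the per-length scale was 0.669 ± 0.109 in Con, 0.686 ± 0.0592 in Model and 1.11 ± 0.0917 in RES (SD, n = 3). It was 1.19, 1.12 and 1.01 in the RES libraries and 0.671, 0.751 and 0.636 in the Model libraries, with no overlap. The exact two-sided permutation test gave p = 0.1, the smallest that 3 against 3 libraries allow. With the length of all annotated exons in its place, the ratio was 1.08 in RES and 0.668 in Model. Reads of the overlap of THRA with NR1D1 could not be assigned, and their part in the ratio was not tested. At 0.5, 1 and 2 μM FUCO the mean ratios were 0.835, 0.800 and 0.927, with exact permutation p-values of 0.1, 0.2 and 0.2 against Model.

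**Figure D2:**
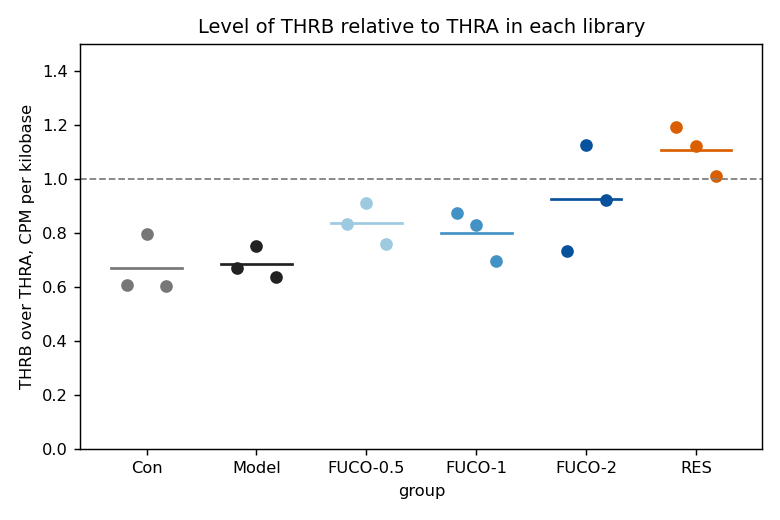
Ratio of THRB to THRA in CPM per kilobase of transcript (vertical axis from 0) in each library, by group. Points are libraries, solid lines are means of 3 and the dashed line marks equal levels. The 3 RES libraries sit at 1.01 to 1.19 and the 3 Model libraries at 0.636 to 0.751, and in the FUCO-2 group the highest library reaches 1.13.

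NCOR1, the scaffold of the corepressor complex that holds target genes down without hormone, was nearly level. It was counted at 182 ± 4.31 CPM in RES and 175 ± 2.54 CPM in Model (SD, n = 3), a log2 fold change of 0.06 with a 95% interval of −0.081 to 0.19. Its pseudogene NCOR1P1 had 0 counts. NCOR1 overlaps TTC19, which rose by 0.36 on the log2 scale with RES (adjusted p = 3.45e-04, edgeR).

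The 3 further hormone-responsive genes were counted at low levels. HR had 42, 20 and 34 counts in RES and 46, 29 and 42 in Model, and the log2 fold change was −0.54 with a 95% interval of −1.10 to 0.026 (adjusted p = 0.107, edgeR). DIO1 had 20, 14 and 8 counts in RES and 12, 14 and 20 in Model, and its log2 fold change of −0.37 had a 95% interval of −1.12 to 0.38, so a difference of this size was not detectable at these counts. THRSP had 15 counts in all 18 libraries together, at most 4 in a library and 0 in 9 of them. It had 0, 0 and 1 counts in RES and 3, 0 and 1 in Model. A floor of 3 counts corresponds to 0.121 to 0.179 CPM in these libraries, so THRSP was counted below this level in RES, and differences under it were not detectable. THRSP also overlaps NDUFC2, a respiratory chain gene counted at 17.2 CPM or more in every library.

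**Figure D3:**
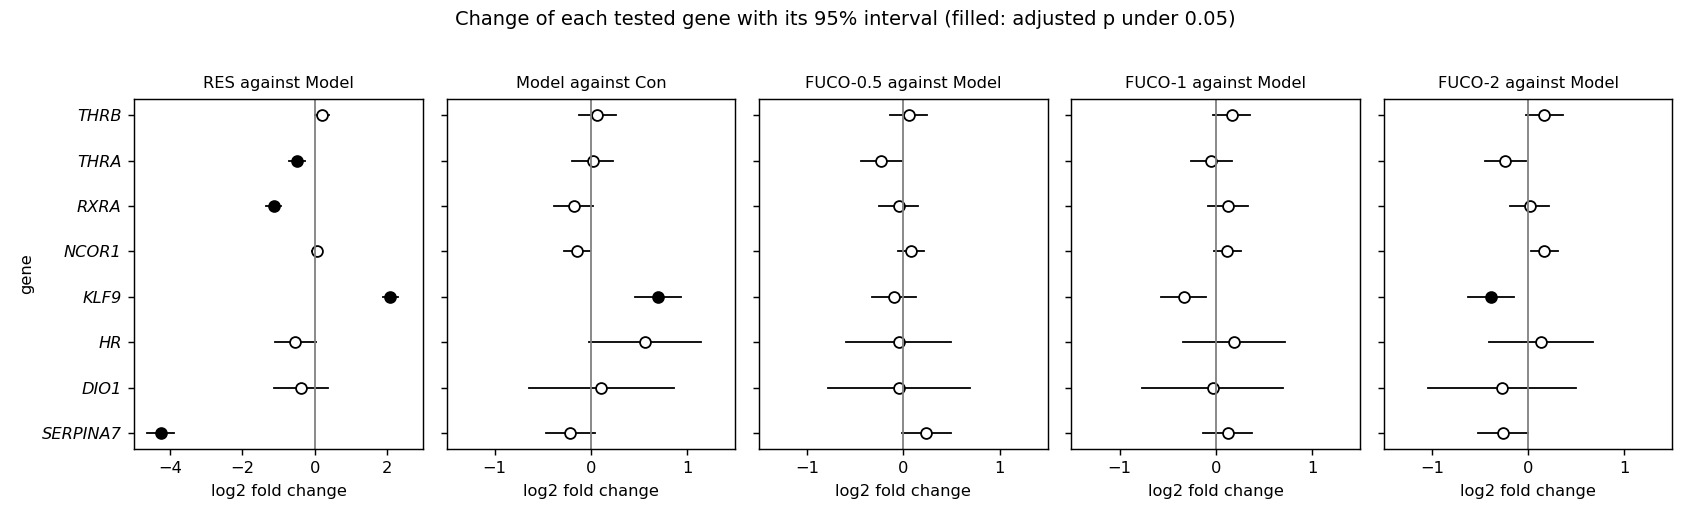
Log2 fold change (horizontal axes, wider for RES against Model) of each tested gene in 5 comparisons, with the 95% interval as a line. Filled points have an adjusted p under 0.05 over all tested genes. With RES, KLF9 lies at 2.10 and SERPINA7 at −4.26, and in the other 4 comparisons KLF9 alone has filled points, at 0.70 for Model against Con and −0.39 for FUCO-2 against Model.

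Other genes of the pathway were taken from lists written by name, with earlier results of these data known. Of 19 genes listed as raised by thyroid hormone, 14 were tested. With RES 8 rose (24.4% of all tested genes rose), 3 fell (25.1% of all tested genes fell) and 3 did not pass. The median log2 fold change of the 14 was 0.42. After KLF9 the largest rise was in ME1, the malic enzyme that supplies NADPH for lipogenesis, from 36.5 ± 2.04 CPM in Model to 151 ± 10.5 CPM in RES (log2 fold change 2.04, SE 0.12). ANGPTL4, an inhibitor of lipoprotein lipase, rose by 1.60 on the log2 scale. PDK4, the kinase that switches off pyruvate dehydrogenase, rose by 1.23, and CPT1A, the carnitine palmitoyltransferase that admits fatty acids to mitochondria, by 1.20. PPARGC1A, GPD2 and ATP2A2 rose by 0.97, 0.43 and 0.41. The 3 that fell were FGF21, FURIN and BCL3, by 0.89, 0.61 and 0.34, and they are named here after their values were seen. ANGPTL4, PDK4 and CPT1A are also known targets of the fatty acid receptor PPARα. The 5 genes not tested were THRSP, PCK1, CYP7A1, SHBG and UCP2, each with at most 4 counts in a library.

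**Figure D4:**
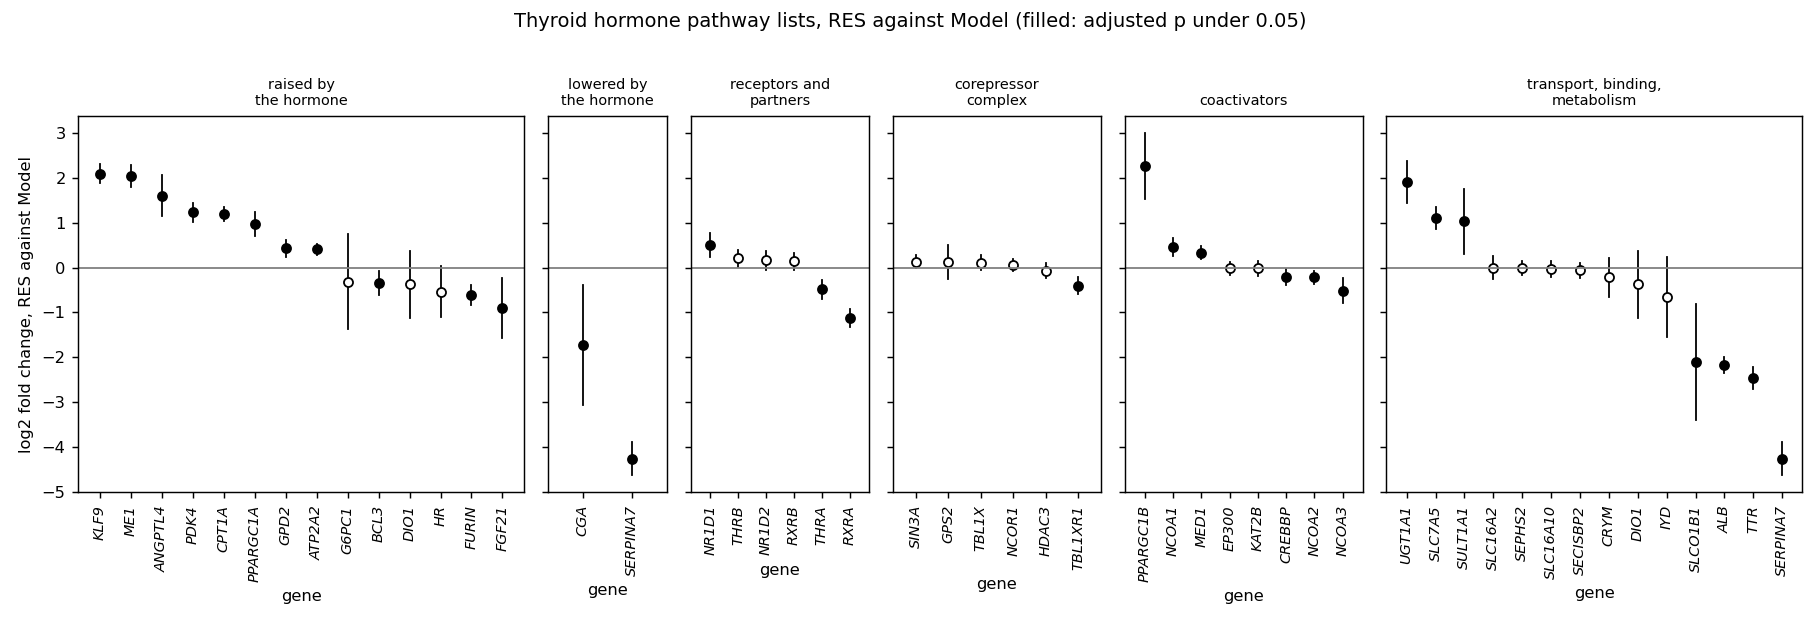
Log2 fold change in RES against Model (vertical axis, shared) of the tested genes of 6 thyroid hormone pathway lists, sorted within each list, with 95% intervals as lines. Filled points have an adjusted p under 0.05. In the list of hormone-raised genes 8 filled points lie above 0 and 3 below, while the corepressor list has 1 filled point, TBL1XR1 at −0.40.

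Among genes that the hormone lowers, SERPINA7 and CGA, the shared α subunit of pituitary glycoprotein hormones, were tested, and both fell. CGA rested on 7, 1 and 5 counts in RES and 14, 9 and 14 in Model, and its call (adjusted p = 0.0305, edgeR) was lost without RES library 2 or 3 or Model library 1 or 3. TSHB and TRH had 0 counts. Of 6 tested receptors and partners, NR1D1 rose and THRA and RXRA fell, so 3 of 6 were called where 49.4% of all tested genes were. In the corepressor complex 1 of 6 genes passed, TBL1XR1, an exchange factor of the complex, which fell by 0.40 on the log2 scale, against the same 49.4%. Of 8 coactivators, 3 rose and 3 fell, where 24.4% of all tested genes rose and 25.1% fell. PPARGC1B, a coactivator of nuclear receptors in mitochondrial and lipid programmes, rose from 6, 8 and 10 counts in Model to 64, 40 and 35 in RES, 2.26 on the log2 scale with an SE of 0.36 (adjusted p = 1.20e-05, edgeR). NCOA1 rose by 0.46 and MED1, the Mediator subunit that contacts the receptors, by 0.34. NCOA3, NCOA2 and the acetyltransferase gene CREBBP fell by 0.51, 0.21 and 0.21.

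The other carriers of the hormone in blood fell with SERPINA7. TTR, transthyretin, went from 209 ± 11.8 CPM in Model to 38.0 ± 2.93 CPM in RES (SD, n = 3), and ALB, albumin, from 33912 ± 334 to 7528 CPM. Both are also hepatocyte markers. The log2 fold changes were −2.46 and −2.17, so SERPINA7 fell further than either on this scale, a difference between genes that was not tested. In the list of transport, binding and metabolism 14 of 17 genes were tested, and 3 rose and 4 fell, where 24.4% of all tested genes rose and 25.1% fell. UGT1A1, which glucuronidates thyroxine among other substrates, rose by 1.91 on the log2 scale (adjusted p = 2.17e-07, edgeR), and it shares exons with the other UGT1A genes, so its reads could be split among them. SLC7A5, an amino acid transporter that also carries thyroid hormones, rose by 1.10, and the sulfotransferase gene SULT1A1 by 1.03. The uptake carrier SLCO1B1 was near the floor, with 3, 2 and 1 counts in RES and 11, 4 and 8 in Model, and its call was lost without Model library 1 (adjusted p = 0.0523, edgeR). Among the deiodinases, DIO2 had at most 2 counts and DIO3 at most 7.

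Model against Con asked what FFA loading changed. KLF9 was the 1 of 8 members called (12.5%), where 17.6% of all tested genes were. It stood at 9.32 to 10.1 CPM in Model and at 6.70, 5.13 and 6.0 CPM in Con, with no overlap, and the log2 fold change was 0.70 (SE 0.12, adjusted p = 1.84e-04, edgeR). HR was higher by 0.56 on the log2 scale without passing (adjusted p = 0.185, edgeR). The intervals of THRB (−0.13 to 0.26), THRA (−0.19 to 0.23) and RXRA (−0.38 to 0.026) bound the log2 differences that these libraries allow. Of the 14 tested hormone-raised genes, 4 rose (8.43% of all tested genes rose) and 1 fell (9.12% of all tested genes fell). The 4 were KLF9, PDK4, ANGPTL4 and CPT1A, with log2 fold changes of 0.70, 1.37, 1.30 and 0.77, and the 1 was PPARGC1A, at −0.66. ME1 differed by −0.00068 on the log2 scale (SE 0.12). Of the 10 hepatocyte markers 5 fell in Model against Con, where 9.12% of all tested genes fell. The 5 leukocyte markers summed to 5.52 to 7.22 CPM in Con and 16.0 to 21.8 CPM in Model, counted mostly from CD14 and LYZ. LYZ rose from 3.16 to 15.9 CPM, and CD14, at 2.87 and 3.58 CPM, did not pass (adjusted p = 0.279, edgeR). PTPRC and CD3E had at most 2 counts. Among markers of endothelium, stellate cells and cholangiocytes, PECAM1 rose by 1.78 and PDGFRB fell by 0.57 on the log2 scale. The rest of these did not pass. The part of these shifts in the KLF9 result was not tested. This comparison and those of RES and FUCO share the Model libraries.

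At 0.5 μM FUCO no member was called against Model, where 1.45% of all tested genes were. In edgeR 1 of the 8 had an unadjusted p under 0.05, as had 1641 of the 14557 tested genes. At 1 μM no member was called, where 3.21% of all tested genes were. Again 1 had an unadjusted p under 0.05 in edgeR, as had 2375 of the 14557 tested genes. In the lists, none of the 14 hormone-raised genes passed at either dose. DESeq2 also called no member at either dose. At 2 μM 1 of 8 members was called, where 20.5% of all tested genes were.

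That member was KLF9, which fell. It stood at 8.18, 7.13 and 6.83 CPM in FUCO-2, below each Model library and above each Con library. The log2 fold change was −0.39 (SE 0.11, adjusted p = 0.0179, edgeR), with values of −0.10 at 0.5 μM and −0.33 at 1 μM. The call was not kept without Model library 3 (adjusted p = 0.0714), FUCO-2 library 2 (adjusted p = 0.0669) or FUCO-2 library 3 (adjusted p = 0.0701, edgeR). Without FUCO-2 library 1, 3 members were called, THRA and NCOR1 being the others, and the share of all tested genes was not counted for that fit. Of the hormone-raised genes 2 rose at this dose (10.8% of all tested genes rose) and 4 fell (9.71% of all tested genes fell). ME1 rose by 0.92 and BCL3 by 0.48 on the log2 scale, and PDK4, CPT1A, KLF9 and ATP2A2 fell by 0.47, 0.39, 0.39 and 0.22.

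Between FUCO doses, SERPINA7 was lower at 2 than at 0.5 μM. Its levels were 32.2, 33.5 and 26.1 CPM at 0.5 μM, 28.9, 26.5 and 29.5 at 1 μM, and 21.4, 18.3 and 25.3 at 2 μM. Each 2 μM library was below each library of the lower doses. Over the 3 dose comparisons the 8 members gave 1 call, FUCO-2 against FUCO-0.5 for SERPINA7, with a log2 difference of −0.50 (SE 0.13, adjusted p = 0.0081, edgeR), which was lost without FUCO-2 library 2 (adjusted p = 0.0634). All tested genes were called at 0.00687% for 1 against 0.5 μM, at 6.3% for 2 against 1 μM and at 15.1% for 2 against 0.5 μM. Against Model SERPINA7 differed by −0.26 at 2 μM without passing (adjusted p = 0.147, edgeR), and it was called without FUCO-2 library 3 (adjusted p = 0.0453). At 2 μM 8 of the 10 hepatocyte markers fell against Model, where 9.71% of all tested genes fell. The median log2 fold change of the 10 was −0.52. Of the markers of other cell types, SOX9 rose by 0.56 and LYZ and KRT19 fell by 0.44 and 0.39 on the log2 scale. The rest of these did not pass. The part of these shifts in the SERPINA7 difference was not tested.

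The change with RES differed from that with 2 μM FUCO for 4 of 8 members, where 48.4% of all tested genes differed. KLF9 was higher in RES than in FUCO-2 by 2.49 on the log2 scale, SERPINA7 differed by −4.00 and RXRA by −1.14, with no overlap between the groups' libraries. HR was the fourth, at −0.67 (adjusted p = 0.0427, edgeR), with overlapping groups, and its adjusted p ran up to 0.383 over the alternatives. RES differed from Con in 5 of 8 members, where 57.3% of all tested genes differed, THRB being the fifth at 0.28 on the log2 scale (adjusted p = 0.0141, edgeR). That call was lost without Con library 3 (adjusted p = 0.101) or RES library 1 (adjusted p = 0.0845).

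In the order of group means, KLF9 ran from RES (41.4 CPM) through Model (9.65), FUCO-0.5 (9.01), FUCO-1 (7.66) and FUCO-2 (7.38) to Con (5.95). Among these neighbours only RES and Model passed the test. FUCO-2 and Con did not overlap either, with a log2 difference of 0.31 and a 95% interval of 0.057 to 0.56 (adjusted p = 0.0668, edgeR), nor did FUCO-0.5 and FUCO-1 (adjusted p = 0.472, edgeR). SERPINA7 ran from FUCO-0.5 (30.6 CPM) through Con (30.2), FUCO-1 (28.3), Model (26.0) and FUCO-2 (21.7) to RES (1.37), and among neighbours only FUCO-2 and RES passed, while Model overlapped neither FUCO-1 nor FUCO-2 (adjusted p = 0.675 and 0.147, edgeR). RXRA ran from Con (210 CPM) to FUCO-0.5 (180) and RES (85.2), and only that last step passed. THRB ran from RES (41.5 CPM) to Con (34.3), and no neighbours passed the test for THRB, THRA, NCOR1, HR or DIO1. For THRA, the neighbours FUCO-2 and RES did not overlap, RES being lower by 0.25 on the log2 scale with a 95% interval of −0.46 to −0.034 for the difference (adjusted p = 0.0511, edgeR), and 4 of 13 alternative fits called it, with adjusted p-values from 0.0114 to 0.338. The other neighbours without overlap were FUCO-1 and FUCO-0.5 for THRA (adjusted p = 0.532) and RES and Model for NCOR1 (adjusted p = 0.504, edgeR).

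The genes whose log2 CPM followed SERPINA7 most closely over the 18 libraries were GLUD1 (Pearson r = 0.990), GC (r = 0.988) and IGDCC3 (r = 0.987). Those closest to KLF9 were EXT2 (r = 0.982), LGALS8 (r = 0.981) and GDE1 (r = 0.973), of 13070 candidates. The RES libraries carry much of this likeness. Over the 15 other libraries r was 0.876, 0.709 and 0.555 for the 3 genes near SERPINA7 and 0.767, 0.674 and 0.791 for those near KLF9. The libraries share groups, so these values describe the pattern and carry no test. GC, the vitamin D carrier, fell from 1874 ± 82.2 CPM in Model to 154 ± 10.4 CPM in RES, and LGALS8, a galectin, stood at 47.2 ± 1.56 and 129 ± 4.34 CPM.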

How the data were processed

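Total RNA of Hep3B cells had been poly(A)-selected and sequenced in paired ends. The authors trimmed reads with fastp, aligned them with STAR to GRCh38 and counted reads per gene with featureCounts, and they deposited raw counts without normalization (per the study's methods and the submitters' processing notes, which also name DESeq2). Strand setting and the handling of multi-mapping reads were not given in the sources used here. Library totals ran from 16916688 to 23083498 counts. Floors of counts cover counting error only. The 95% intervals of log2 fold changes come from the edgeR fit and include the spread between libraries. All 18 columns were matched to samples by library name, and 0 were unmatched.

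Counts were analysed in R 4.3.3 with edgeR 4.0.16: filterByExpr (minimum count 10, minimum total 15), TMM normalization, a quasi-likelihood model in which the 6 groups of 18 libraries share the estimate of spread, a prior count of 0.125, and Benjamini-Hochberg adjustment over 14557 genes. DESeq2 1.42.0 was an alternative. The genes, lists and rules were chosen with earlier results of these data known. Named singly were all 9 genes, up to 4 further genes per list with the largest change in RES against Model among those called without overlap, and the 3 genes most correlated with KLF9 and SERPINA7 (mean of at least 1 CPM). Other genes behind counts of 5 or fewer were named after their values were seen. Of the lists, 2 genes are not reported here and were left out of their counts. Likeness without the RES libraries and the ratio over all exons were added after seeing the data. Same-numbered libraries deviated together weakly at most (r from −0.20 to 0.19 over 45 pairs, 7 over 0.1), and 10 of 18 were closest to their own number. The numbers were not treated as pairs in the main fit. Replicates differed by more than counting noise (chi-square per degree of freedom 2.34 to 20.0).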

Additional observations from a re-analysis of the deposited data

Results flagged for a closer look

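The change of SERPINA7 against Model differed between the lowest and the highest FUCO dose. The difference itself was tested with edgeR, as FUCO-2 against FUCO-0.5, and was −0.50 on the log2 scale (adjusted p = 0.0081), with the 3 libraries at 2 μM below the 3 at 0.5 μM. It was no longer called without FUCO-2 library 2 (adjusted p = 0.0634).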

How the results depend on the processing

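In RES against Model, the direction and the call of KLF9, SERPINA7, RXRA and THRA held under all 13 alternatives each. These were DESeq2, RLE normalization, other filters, a fit of only the 2 groups, a replicate block and each library left out. A further alternative was a prior count of 2, which moves the log2 fold change and not the p-value. It could not change a call, and it is included in the counts of alternatives. Over 71 log2 fold changes and 913 alternatives, 860 kept direction and side of the threshold, 16 lost the call, 15 gained one and 22 changed sign, none of the last being called in either fit. THRB in RES against Model was called with only the 2 groups fitted (adjusted p = 0.0213), with the replicate block (adjusted p = 0.0377), without Model replicate 2 (adjusted p = 0.0497) and without RES replicate 3 (adjusted p = 0.0204). Same-numbered libraries deviated together weakly at most, and 10 of 18 libraries were closest to their own number. The block otherwise changed 1 call, THRA in RES against FUCO-2 (adjusted p = 0.0420, edgeR), and raised the receptors called higher from 1 to 2. The causes of the following changes were not tested.

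With only the 2 groups fitted, members called in Model against Con went from 1 to 2, where 18.6% of all tested genes were called. In RES against Model this fit called 60.7% of all tested genes. The list genes called there went to 1 lower for hormone-lowered genes, 3 higher for receptors, and 1 higher for corepressors. Requiring 10 counts in every library left 1 hormone-lowered gene, where 51.9% of all genes then tested were called in RES against Model. DESeq2 and no filter on low counts each gave 2 dose differences in place of 1. With a log2 fold change over 1 required as well, members called were 0 in Model against Con, 0 in FUCO-2 against Model and 3 in RES against Con, dose differences were 0, and called pairs of group levels were 15 in place of 28. The lists in RES against Model then gave 5 higher and 0 lower for hormone-raised genes, 0 and 1 for receptors, 0 lower for corepressors, and 1 and 0 for coactivators. Of all tested genes 9.91% passed this rule in RES against Model, and for the other comparisons that share was not counted.

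With 1 library left out at a time, members called in FUCO-2 against Model were 0 to 3. The share of all tested genes called was not counted for these fits. In RES against Model, 1 to 3 hormone-raised, 1 to 2 hormone-lowered and 1 to 3 coactivator genes were lower, and 1 to 2 receptor genes were higher. Uncalled log2 fold changes crossed 0 in Model against Con for THRB (−0.0026 to 0.14), THRA (−0.056 to 0.095) and DIO1 (−0.20 to 0.33). They did so in FUCO-0.5 against Model for THRB (−0.016 to 0.12), DIO1 (−0.31 to 0.18), HR (−0.25 to 0.086) and RXRA (−0.099 to 0.018), in FUCO-1 against Model for THRA (−0.16 to 0.017) and DIO1 (−0.18 to 0.19), and in FUCO-2 against Model for HR (−0.22 to 0.39) and RXRA (−0.13 to 0.094).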
